A study of Mus musculus with 4 samples.

Results

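The Cd2, Cd5 and Slam family surface receptors of T-cells were examined in proliferating against resting regulatory T-cells (Tregs), as the probe sets that the platform annotation gives to 1 of 10 genes alone. The genes were Cd2, Cd5, Cd6, Cd7, Cd48, Slamf1, Slamf6, Ly9, Cd52 and Cd53. All 10 were measured, by 11 probe sets, among 22180 genes with a probe set of their own, and no probe set was shared between a member and another gene. The RNA came from Tregs of NOD mice, which become diabetic through autoimmunity, after 5 days of co-culture with G-BMDCs, the dendritic cells that GM-CSF yields in bone marrow cultures. Proliferating Tregs (2 arrays) had diluted a division dye, and resting Tregs (2 arrays) had kept it. The labels call the dye CFSE and the methods Cell Trace Violet. Both groups shared the co-culture, and no source used here states the age of the mice, a pool or a surface marker used in that sort.

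These receptors sit on the surface of T-cells and tune contact with other cells and signaling by the T-cell receptor. CD2 is an adhesion and co-stimulatory receptor which in mice binds CD48, a GPI-anchored protein of most blood cells. The SLAM receptors, among them SLAMF1 (CD150), SLAMF6 (Ly108) and LY9 (CD229), mostly bind their own kind on a neighboring cell, and their tails recruit the adaptor SAP. CD5 and CD6 are scavenger-receptor proteins that dampen T-cell receptor signaling. CD7 is an immunoglobulin-type receptor, CD52 a very short GPI-anchored glycoprotein of lymphocytes and CD53 a tetraspanin of leukocytes.

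The values are log2 expression values, and levels of different probe sets were not compared, since each probe set has its own response. Fold changes are proliferating over resting, and a gene was called at an adjusted p under 0.05 by limma's moderated test with Benjamini-Hochberg adjustment over all 22180 genes. Nothing states whether the 2 arrays of a group came from separate cultures, so p-values measure the spread between these arrays, which may be technical. The 2 proliferating arrays correlated at 0.981 and the 2 resting arrays at 0.980 (Pearson's r over genes, a description), against 0.797 to 0.819 between the groups. The median probe set stood at 5.995 and 5.975 in proliferating arrays and 6.27 and 6.27 in resting arrays. The SD over genes was 1.43 and 1.44 in proliferating arrays and 1.13 and 1.13 in resting arrays, so the groups did not share 1 distribution.

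The cell type and its company were checked with marker lists. All 6 Treg markers (among them Foxp3, at 10.15 and 10.15 in proliferating and 8.30 and 8.26 in resting Tregs) and 5 of 6 measured T-cell markers were higher in proliferating Tregs. All 9 measured B-cell markers and all 10 neutrophil markers were lower. Their summed log2 levels were 53.5 and 53.5 in proliferating against 75.7 and 76.7 in resting arrays for the B-cell list, and 62.1 and 61.8 against 95.2 and 96.8 for the neutrophil list. Cd79a, a chain of the B-cell receptor complex, stood at 5.63 and 5.996 in proliferating and 9.13 and 9.18 in resting arrays. Of 12 dendritic and myeloid markers 8 were higher and 1 lower, with a summed level of 95.04 and 94.2 against 81.1 and 81.0. The CD8 and NK list had 1 of 6 higher and 3 lower (37.0 and 37.6 against 39.7 and 39.96), and 4 erythroid and platelet markers had 1 higher and 3 lower (28.5 and 28.2 against 27.1 and 26.9). The higher marker of these 4 was Pf4, at 10.17 and 10.15 in proliferating and 6.15 and 5.96 in resting arrays. Its log2 fold change of 4.11 had rank 7 among those of all genes. No marker was at 0, since these are log2 values with a probe background. B-cells, neutrophils and dendritic cells express some of the receptors described here as well, and the part of such cells in the changes of these receptors was not tested. The methods describe CD4+ T-cells isolated from spleen and G-BMDCs sorted as CD11c+ before the co-culture. Which other cells remained after these steps was not tested. In bulk RNA, fewer cells of a type and less RNA per cell cannot be told apart.

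**Figure D1:**
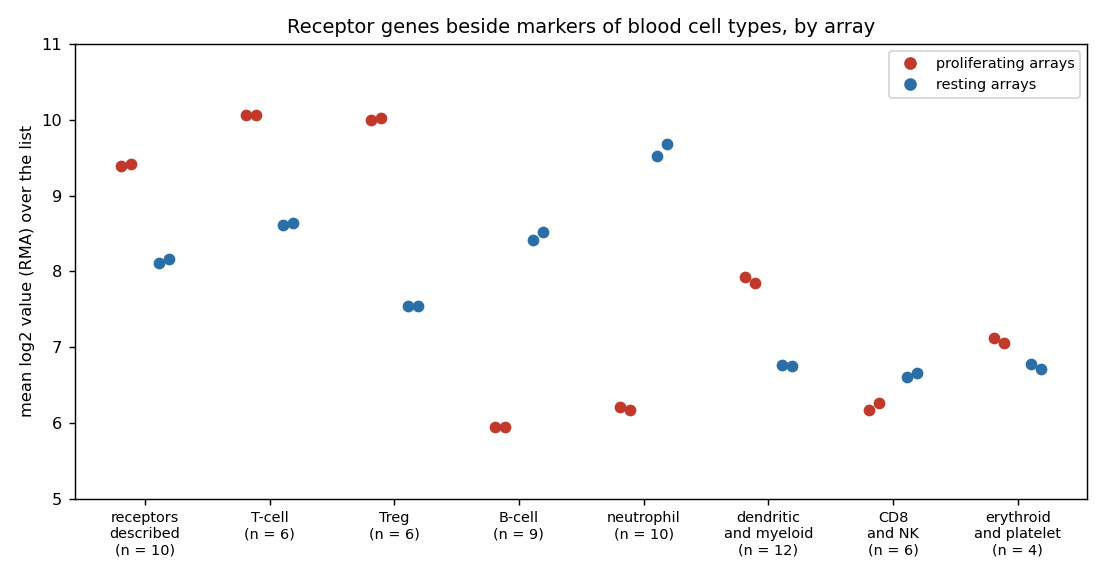
Mean log2 value (RMA) over the 10 receptor genes and over 7 marker lists, 1 point per array, proliferating arrays left of resting arrays, with the number of measured genes under each list. The receptor genes averaged 9.39 and 9.41 in proliferating and 8.11 and 8.16 in resting arrays. The B-cell and neutrophil lists lay lower in proliferating arrays. The dendritic and myeloid list lay higher, at 7.92 and 7.85 in proliferating against 6.76 and 6.75 in resting arrays.

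Of the 10 receptor genes, 8 were higher in proliferating Tregs, 1 fell and 1 was not called, whereas 3 were higher and 5 lower with the arrays centred on housekeeping genes, and 1 was higher and 6 were lower with the arrays centred on Cd3d, Cd3e and Cd3g. The background on the deposited scale was 25.6% of all genes for higher, 34.5% for lower and 60.1% for either direction. It was 4.16% for higher and 88.4% for lower after housekeeping centring, and 1.48% and 94.7% after Cd3 centring. A filter on dim genes left 11090 genes, all 10 receptors among them. Of these genes, 46.2% were higher and 31.4% lower, with a median log2 fold change of 0.20. The median log2 fold change of the receptors was 1.19 and that of all genes -0.17. With at least a doubling, 6 of 10 receptors were called, against 12.6% of all genes. The proliferating arrays lay above both resting arrays for 9 receptors and below them for 1, against 33.0% and 48.1% of all genes. The SD within a group was at most 0.11 in proliferating and 0.22 in resting Tregs.

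**Figure D2:**
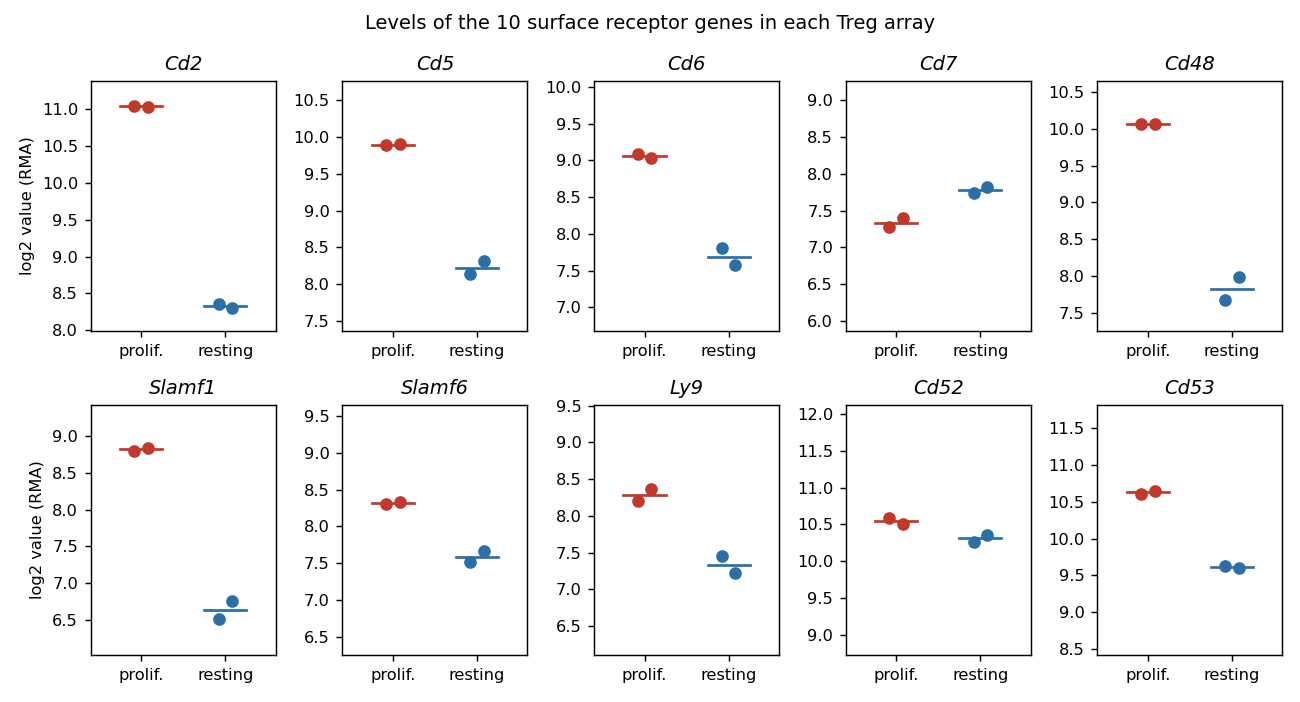
Log2 value (RMA) of each receptor gene in each array, proliferating left and resting right, with a line at the group mean (n = 2 arrays per group). Each panel has its own position on the axis but the same span, so that vertical distances can be compared, and the groups overlap in none of the 10 panels.

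Cd2, the adhesion receptor, had the largest change among the 10. Its level was 11.04 and 11.04 in proliferating Tregs, against 8.36 and 8.30 in resting Tregs. Every proliferating array stood well above every resting one, and the replicates of each group lay close together. The log2 fold change was 2.71 ± 0.12 (SE from limma, adjusted p = 1.15e-05), which was 6.54-fold and rank 156 among the fold changes of all genes. Cd2 was the 1 receptor that passed the test as higher under every scaling tried, with 0.74 after centring on the Cd3 genes (adjusted p = 6.25e-04).

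Cd48, the gene of the CD2 ligand in mice, stood at 10.07 and 10.07 in proliferating and at 7.67 and 7.98 in resting Tregs. The resting arrays differed from each other here more than for any other receptor, and the groups stayed far apart. The log2 fold change was 2.24 ± 0.15 (SE, adjusted p = 2.73e-05), or 4.73-fold. The gap of Cd2 over Cd48 within an array was 0.97 and 0.97 in proliferating and 0.69 and 0.32 in resting arrays. The receptor thus changed more than its ligand by 0.47 on the log2 scale. The gaps of the groups did not overlap, which held for 43 of the 45 pairs of receptors. Each pair was taken as the gene with the larger fold change minus the other.

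Slamf1, the gene of the SLAM receptor CD150, had levels of 8.80 and 8.83 in proliferating and 6.51 and 6.76 in resting Tregs. Its log2 fold change of 2.18 ± 0.14 (SE, 4.54-fold, adjusted p = 2.54e-05) was close to that of Cd48, and the gap of Cd48 over Slamf1 was 1.27 and 1.23 in proliferating against 1.17 and 1.22 in resting arrays. The change of that gap was 0.0572. Centred on the Cd3 genes, Cd48 and Slamf1 had log2 fold changes of 0.27 and 0.21, which did not pass the test (adjusted p = 0.108 and 0.187).

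The other SLAM receptors among the 10 changed less. Ly9, the gene of CD229, stood at 8.21 and 8.36 in proliferating and 7.45 and 7.22 in resting Tregs, a log2 fold change of 0.95 ± 0.14 (SE, 1.93-fold, adjusted p = 0.0012). Slamf6, the gene of Ly108, stood at 8.30 and 8.34 against 7.51 and 7.67, a log2 fold change of 0.73 ± 0.13 (SE, 1.66-fold, adjusted p = 0.00253). Both genes were separated between the groups, but by much less than Slamf1. The second probe set of Slamf6 was at 6.37 and 6.59 in proliferating and 6.23 and 6.22 in resting arrays and did not pass the test (log2 fold change 0.25, adjusted p = 0.145 over all probe sets). The log2 value of Slamf1 minus that of Slamf6 was 0.50 and 0.50 in proliferating and -1.01 and -0.91 in resting arrays, a movement of 1.45. Only the movement can be read, because the 2 probe sets do not share a scale. The gaps of Ly9 over Slamf6 overlapped between the groups, at -0.0937 and 0.0237 in proliferating and -0.0580 and -0.45 in resting arrays. An exact permutation test of any of these gaps cannot go below p = 0.333 with 2 arrays a group, and these pairs were chosen after their values were seen. The methods' t-test, once adjusted, called neither Ly9 nor Slamf6 (adjusted p = 0.0703 and 0.0543), and both were lower after centring on housekeeping genes (-0.47 and -0.69) and on the Cd3 genes (-1.02 and -1.24). After quantile normalization Slamf6 was not called by limma (0.29, adjusted p = 0.114), while Ly9 was (0.58, adjusted p = 0.0183).

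Cd5 and Cd6, the scavenger-receptor genes, rose in proliferating Tregs on the deposited scale. Cd5 had levels of 9.89 and 9.91 in proliferating and 8.14 and 8.31 in resting Tregs. Its log2 fold change was 1.67 ± 0.13 (SE, 3.19-fold, adjusted p = 5.57e-05). Cd6 had levels of 9.09 and 9.04 against 7.81 and 7.58, with a log2 fold change of 1.37 ± 0.14 (SE, 2.59-fold, adjusted p = 0.00017). These 2 genes are neighbors on chromosome 19. The gap of Cd5 over Cd6 was 0.80 and 0.87 in proliferating and 0.33 and 0.74 in resting arrays, and it moved by 0.30. Neither was called after centring on housekeeping genes (0.25 and -0.0477, adjusted p = 0.103 and 0.752), and on the Cd3 genes both were negative, at -0.30 and -0.60.

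Cd53, the leukocyte tetraspanin, stood at 10.61 and 10.64 in proliferating and 9.63 and 9.60 in resting Tregs. The 4 values formed a tight pair in each group, and the log2 fold change was 1.02 ± 0.12 (SE, 2.02-fold, adjusted p = 4.39e-04). Its direction turned after centring on housekeeping genes and on the Cd3 genes, at -0.41 and -0.95. After quantile normalization the log2 fold change of Cd53 was 0.43 (adjusted p = 0.0271 from limma). Cd52, the GPI-anchored lymphocyte glycoprotein, was at 10.58 and 10.51 in proliferating and 10.26 and 10.35 in resting Tregs. The groups did not overlap, but the difference of 0.23 on the log2 scale (95% interval -0.0637 to 0.53, 1.18-fold) did not pass the test (adjusted p = 0.146). It passed as higher with a trended and robust prior (adjusted p = 0.0236) and after median centring (0.47, adjusted p = 0.0184), while its log2 fold change was -0.32 after quantile normalization, -1.19 with housekeeping centring and -1.74 with Cd3 centring.

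Cd7, an early T-cell marker, was the receptor that fell. Its level was 7.28 and 7.40 in proliferating Tregs, against 7.74 and 7.83 in resting Tregs. Both proliferating arrays were below both resting arrays, and the log2 fold change was -0.45 ± 0.13 (SE, adjusted p = 0.0196), a level 0.733 times that of resting Tregs. It was negative under every scaling tried, but was not called after median centring (-0.22, adjusted p = 0.209) or by the methods' t-test with adjustment (adjusted p = 0.0794). Its call was also lost without resting replicate 1, resting replicate 2 or proliferating replicate 1 (adjusted p = 0.0739, 0.108 and 0.0624).

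**Figure D3:**
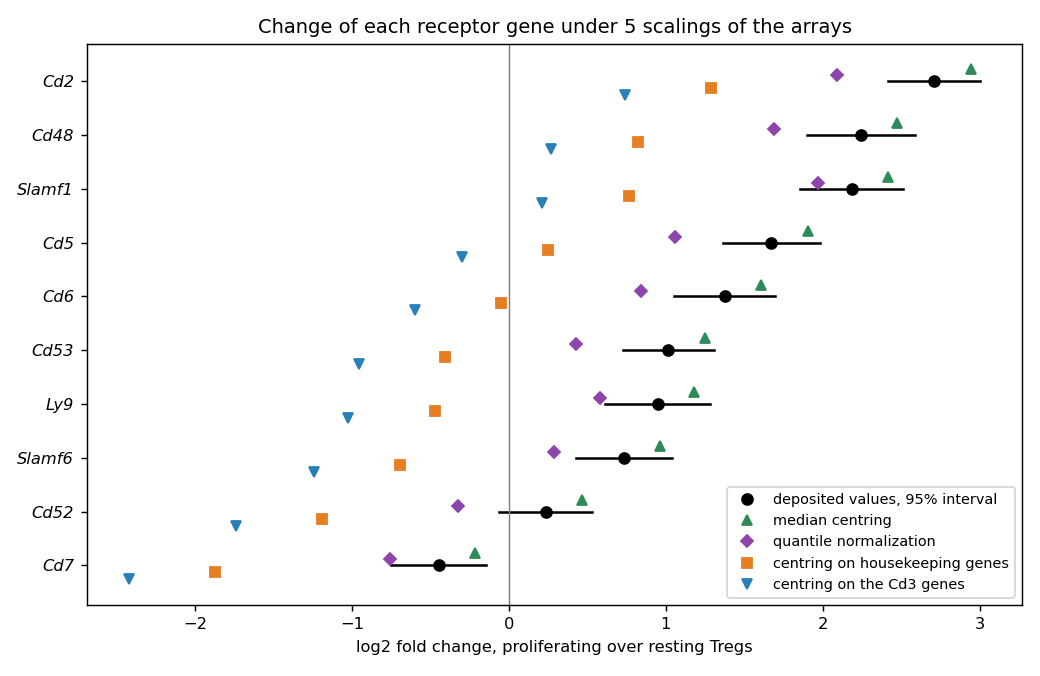
Log2 fold change of each receptor gene, proliferating over resting Tregs, on the deposited values (black, with the 95% interval from limma) and after 4 other scalings of the 4 arrays. Cd2 stayed right of 0 and Cd7 left of 0 under all 5 scalings, while Cd5, Cd6, Cd53, Ly9, Slamf6 and Cd52 changed side after centring on housekeeping genes, on the Cd3 genes or both.

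A centring moves all genes by 1 amount, so it can turn the direction of these genes but not their order. Quantile normalization can do both, and put Slamf1 (1.97) before Cd48 (1.69). Every receptor had a lower log2 fold change after quantile normalization than on the deposited values, with Cd2 at 2.09 and Cd53 at 0.43. Centring on the mean of 9 housekeeping genes subtracted 1.42 from every log2 fold change, and centring on the Cd3 genes subtracted 1.97. The methods name housekeeping controls for the arrays but not which genes, and the 9 used here come from a list made for this report. On the deposited scale the log2 fold changes ran over 0.35 to 3.52 for those 9 genes and over 1.48 to 2.39 for the Cd3 genes. After these centrings the median of all genes was -1.59 and -2.14, with 922 higher and 19605 lower genes and 329 and 21009. Median centring added 0.23, and 64.3% of called genes were then higher, against 42.7% on the deposited values.

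4 of the receptor genes belong to the SLAM gene cluster of chromosome 1, where 7 SLAM receptor genes follow each other in the order Cd244a, Ly9, Slamf7, Cd48, Slamf1, Cd84 and Slamf6. Of the 7, on the deposited scale 5 were higher in proliferating Tregs, 1 fell and 1 was not called, against 25.6% higher and 34.5% lower among all genes. Of those 5, 4 are receptors already described above, so the count largely repeats their result. Cd84, Ly9 and Slamf6 turned negative after centring on housekeeping genes, where 88.4% of all genes were lower. Cd84, a self-binding SLAM receptor, was at 8.21 and 8.14 in proliferating and 7.35 and 7.39 in resting Tregs (log2 fold change 0.81, adjusted p = 0.00134). Cd244a, which encodes the CD48 receptor 2B4 of NK-cells, was at 6.26 and 6.07 against 6.82 and 6.99 (log2 fold change -0.74, adjusted p = 0.0033). Slamf7 was at 6.46 and 6.48 against 6.71 and 6.79 and did not pass the test (log2 fold change -0.28, adjusted p = 0.0906). The largest changes among the 7 were those of Cd48 and Slamf1, which follow each other among the SLAM receptor genes, with Tma7-ps between them. Among genes named after their values were seen, the transporter gene Slc15a3 next to Cd6 on chromosome 19 was higher by 1.43 on the log2 scale (adjusted p = 1.10e-04). On the other side of Cd5, Vps37c was at 0.12 (adjusted p = 0.478).

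**Figure D4:**
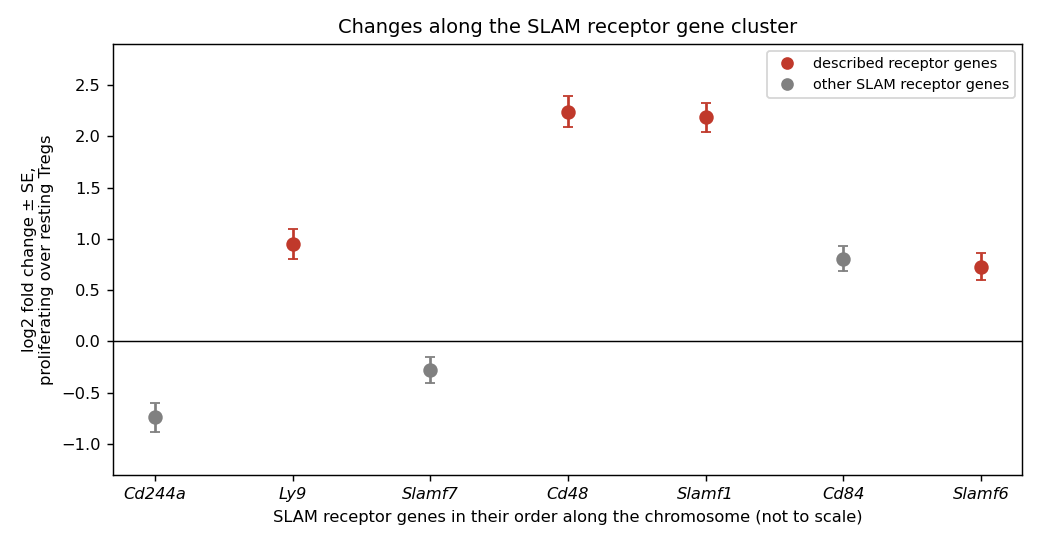
Log2 fold change, proliferating over resting Tregs on the deposited values, of the 7 SLAM receptor genes in their order along chromosome 1, with the standard error from limma (n = 2 arrays per group). Cd48 and Slamf1 in the middle stand at 2.24 and 2.18, and Cd244a and Slamf7 lie below 0. Centring on housekeeping genes would lower every point by 1.42.

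Promoter windows from RefSeq on GRCm38.p6 were matched to 5 of the 10 receptor genes (Cd48, Slamf1, Slamf6, Cd53 and Cd5). The 250 bases before the start are shown for Slamf1 and Slamf6, cluster genes that changed by unequal amounts, and for Cd5. The start is that of the window, which need not be the outer end of the gene. In the RefSeq gene table, Cd5 reaches into its window, and the second AGGAAG there lies within the gene. The last bases of the Slamf6 window and the whole Cd48 window also lie within their genes. Capitals mark AGGAAG, a form of the ETS factor motif, on either strand:
Slamf1, chr1:171766882-171767131, plus strand: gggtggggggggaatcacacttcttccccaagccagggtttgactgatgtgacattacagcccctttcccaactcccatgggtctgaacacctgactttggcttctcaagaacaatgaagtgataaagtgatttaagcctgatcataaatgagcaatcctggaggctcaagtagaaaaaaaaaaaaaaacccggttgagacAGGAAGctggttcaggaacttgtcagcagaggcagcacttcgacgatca
Slamf6, chr1:171917212-171917461, plus strand: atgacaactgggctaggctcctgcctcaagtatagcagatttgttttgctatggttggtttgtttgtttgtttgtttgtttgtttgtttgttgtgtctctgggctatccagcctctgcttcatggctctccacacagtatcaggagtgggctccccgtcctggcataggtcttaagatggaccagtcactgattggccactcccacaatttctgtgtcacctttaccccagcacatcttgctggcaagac
Cd5, chr19:10738975-10739224, minus strand: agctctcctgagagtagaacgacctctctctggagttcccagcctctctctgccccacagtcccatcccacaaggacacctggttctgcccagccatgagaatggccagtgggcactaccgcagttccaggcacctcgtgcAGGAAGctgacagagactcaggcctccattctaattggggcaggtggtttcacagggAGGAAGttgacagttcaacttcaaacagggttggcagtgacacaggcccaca
AGGAAG occurred 1 time in the Slamf1 and 2 times in the Cd5 window and in none of the other 3, against 29.5% of 32851 windows of the same length. The RUNX motif TGTGGT occurred in the Cd48 and Cd53 windows and in 4614 of all windows. No match was found in the 5 windows for TTCNNNGAA (STAT, in 7.02% of all windows), CCGGAA (ETS, 12.0%), TGGAAA (NFAT, 18.6%), TGANTCA (AP-1, 6.75%), the NF-κB consensus (7.25%), TTTCCCGC (E2F, 0.895%), CACGTG (Myc, 6.02%), TATAAA (12.4%) or GGGCGG (GC box, 32.7%). Both strands were searched, the motifs with the core GGAA can overlap one another, and a match is a description of letters only.

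The genes around the receptors were taken as lists of ligands, further SLAM receptors, tail partners and tetraspanins. Their counts stand against the background of 25.6% higher and 34.5% lower genes on the deposited scale, and of 4.16% and 88.4% after housekeeping centring. With dim genes left out, the background was 46.2% and 31.4%. Of 5 measured further SLAM receptors, 2 were higher and 2 lower in proliferating Tregs, with a median log2 fold change of -0.28. After centring on housekeeping genes all 5 were lower. Of 6 measured ligands, 1 was higher and 4 lower in proliferating Tregs, with a median log2 fold change of -0.70, and 2 were higher and 3 lower after quantile normalization or median centring. With dim genes left out, here Cdcp1, Sectm1a and Sectm1b, 3 ligands remained. Of these, 1 was higher and 1 lower, and the median was 0.22. Lgals1, the gene of galectin-1, which binds human CD7, was at 12.18 and 12.38 in proliferating and 8.32 and 8.68 in resting Tregs (log2 fold change 3.77, adjusted p = 9.62e-06), and stayed higher under every scaling tried. Sectm1a and Sectm1b, counterparts of the human CD7 ligand gene, had log2 fold changes of -0.81 and -1.29. Siglecg, whose human counterpart binds CD52 and which B-cells express, was at 5.59 and 5.87 against 8.11 and 8.51 (log2 fold change -2.58, adjusted p = 3.16e-05), beside the 9 B-cell markers that were also lower. Of the CD6 ligand genes, Cdcp1 was lower (-0.60, adjusted p = 0.02) and Alcam did not pass the test (0.22, adjusted p = 0.168).

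Sh2d1a, which encodes the adaptor SAP, changed most among 7 tail partners of the SLAM receptors. It was at 8.86 and 8.82 in proliferating and at 6.36 and 6.48 in resting Tregs. The log2 fold change was 2.42 (adjusted p = 1.42e-05), and it was 0.995 with housekeeping centring and 0.45 with Cd3 centring. Fyn, the kinase that SAP recruits, and Ptpn11, the gene of the phosphatase SHP-2, had log2 fold changes of 0.57 and 0.94. Ptpn6, the gene of the phosphatase SHP-1, and Sh2d1b2, a relative of SAP, were lower, at -0.54 and -0.46 (adjusted p = 0.00851 and 0.0412). Thus 3 were higher, 2 lower and 2 not called, with a list median of 0.32 (0.0393 after quantile normalization), and after centring on housekeeping genes 1 was higher and 6 were lower. With 7 genes, neither split stands far from the background of all genes on its own scale.

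Of 8 measured tail partners of CD5 and CD6, 7 were higher and none was lower on the deposited scale, with a median of 1.17, against 25.6% and 34.5% of all genes, but 1 was higher and 4 were lower after centring on housekeeping genes, where 88.4% of all genes were lower. Rasa1, the gene of the Ras GTPase activator, was at 8.67 and 8.90 in proliferating and 6.52 and 6.55 in resting Tregs (log2 fold change 2.25, adjusted p = 2.17e-05). Lcp2, the gene of the scaffold SLP-76, was at 9.35 and 9.18 against 7.58 and 7.64 (log2 fold change 1.65, adjusted p = 5.95e-05). The ubiquitin ligase gene Cbl and Ubash3a, the gene of a T-cell phosphatase-like protein, had log2 fold changes of 0.98 and 1.03. Grap2 did not pass the test (0.37, adjusted p = 0.0511). Of 4 measured CD2 tail partners, Cd2ap, Pstpip1 and Cd2bp2 were higher, at 0.83, 0.71 and 0.62, and Sh3kbp1 was not called (0.0476, adjusted p = 0.773), while after centring on housekeeping genes all 4 were lower, as were 88.4% of all genes. After quantile normalization 1 of the 4 was called higher, and the median of 0.66 became 0.24.

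Of 7 other leukocyte tetraspanins, set beside Cd53, 5 were higher, 1 was lower and 1 did not pass, with a median of 0.65, whereas 1 was higher and 6 were lower after centring on housekeeping genes, where 88.4% of all genes were lower. After quantile normalization 2 were higher and 2 lower, with a median of 0.0734. Cd63, a tetraspanin of late endosomes and lysosomes, was at 8.56 and 8.41 in proliferating and 6.70 and 6.56 in resting Tregs (log2 fold change 1.86, adjusted p = 4.11e-05). Cd81 and Tspan32 had log2 fold changes of 0.90 and 1.00. Cd37, a tetraspanin of lymphocytes and most of all B-cells, was at 9.20 and 9.28 against 9.28 and 9.31, and its groups overlapped (log2 fold change -0.0565, adjusted p = 0.714).

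**Figure D5:**
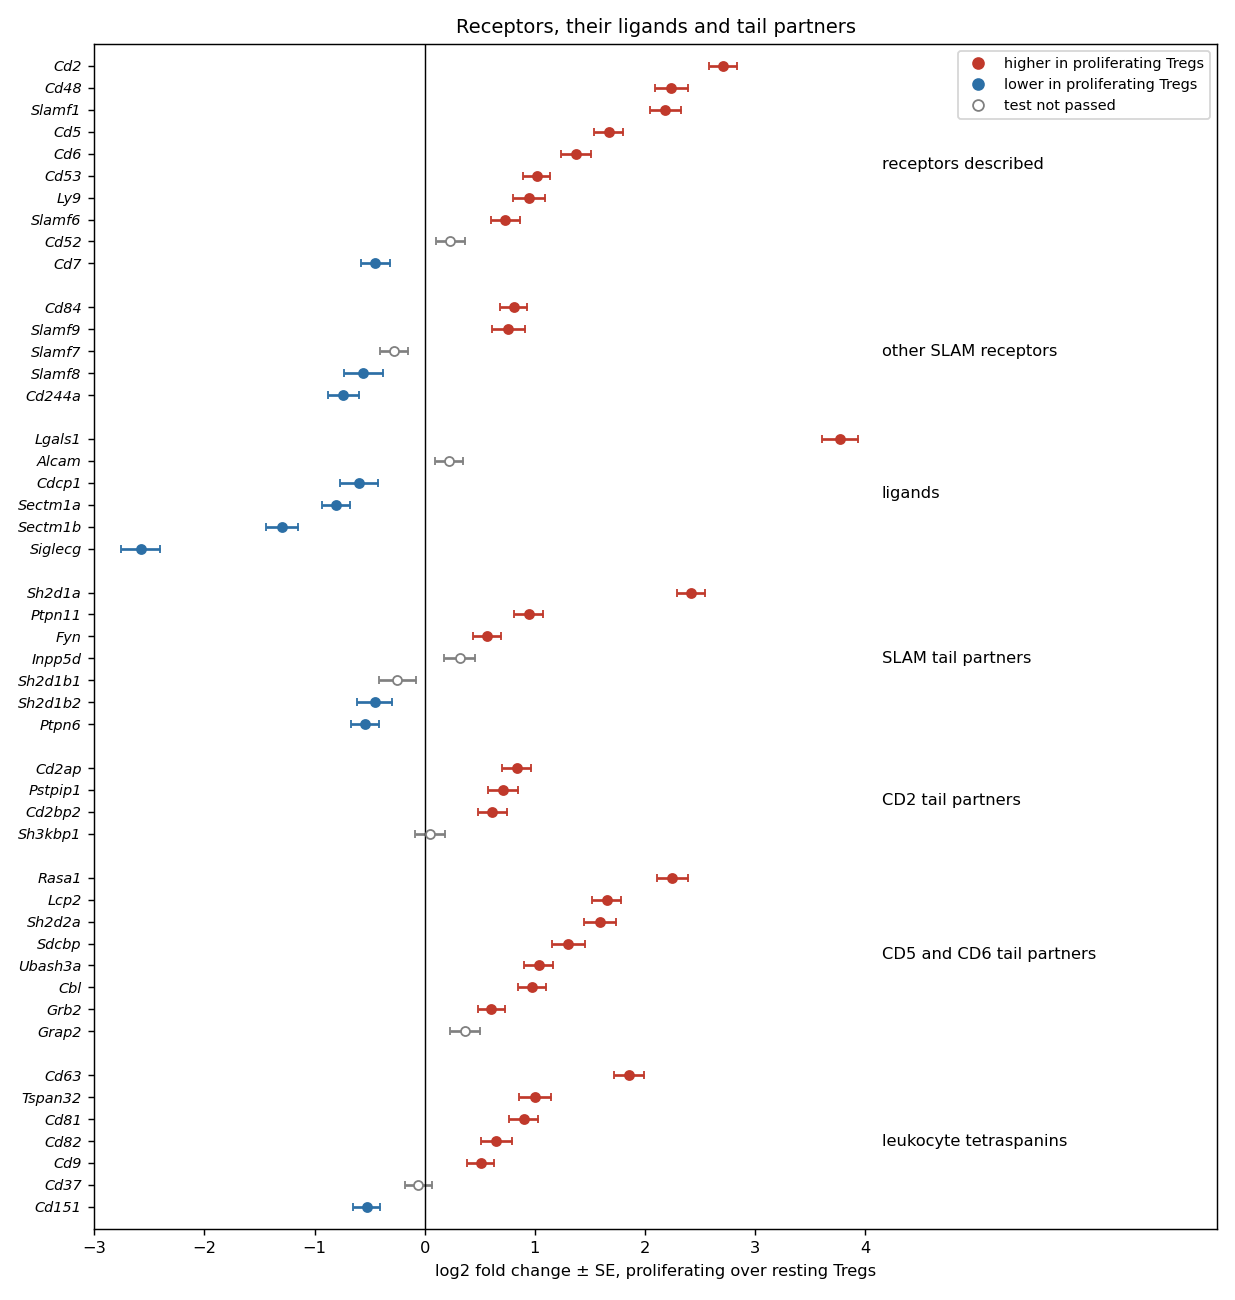
Log2 fold change with standard error, proliferating over resting Tregs on the deposited values, of the 10 receptor genes and of the measured ligands, further SLAM receptors, tail partners and tetraspanins, sorted within each list. Red and blue points passed the test as higher and lower and open points did not. Lgals1 (3.77) and Siglecg (-2.58) lie at the ends, and centring on housekeeping genes would lower every point by 1.42.

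The genes most like Cd2 over the 4 arrays were Mt1, Ndufc2, Tmem29, Socs1 and Cndp2. Their Euclidean distances from Cd2, over the 4 log2 values after subtracting the mean of each gene, were 0.0323 to 0.0713, and their log2 fold changes 2.66 to 2.76. Among the receptors themselves, Cd48 and Slamf1 were closest, at a distance of 0.0744, followed by Cd53 and Ly9 at 0.185. Cd2 and Cd7 were farthest apart, at 3.16. With 4 arrays in 2 groups, such distances mostly repeat the fold change.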

How the data were processed

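RNA of 4 samples was hybridised to 1 Affymetrix whole-transcript array each. The deposited log2 expression values were made by the authors with RMA (background correction, quantile normalization, median polish) in Partek 6.6, per the labels. The table states no scale, and log2 was taken from those notes and the range of the values. Although the labels name quantile normalization, the medians and SDs of the deposited arrays differ between the groups, and the reason was not tested. The study's methods differ: they give housekeeping genes as the control for normalization, R as the software and another array design. The genome build behind the probe annotation is not given in the sources used here, so positions are limited to gene order and to RefSeq's own windows.

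Probe sets were named from the platform annotation (23521 of 41345 carried 1 gene name), of which 23328 matched the RefSeq gene table by gene identifier. Each gene was read from its brightest probe set (mean of all 4 arrays), and low values were kept. The test was limma's (version 3.58.1, lmFit then eBayes, in R 4.3.3), with Benjamini-Hochberg adjustment over 22180 genes at 0.05. The residual degrees of freedom were 2, to which a prior of 5.48 was added. The script was tested on simulated data. Precision is limited by having 4 arrays.

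The members, the lists and the rule for named genes (all 10 receptors, any measured gene of the pathway lists, the 5 genes nearest Cd2, Foxp3, the Cd3 genes and at most 2 markers per cell type list) were chosen with earlier results of these data known. Of the listed pathway genes, Cd72, Lck and Csnk2b were not analysed here. Lists are described by counts and medians, with no set test. Chromosome neighbors of the receptors and pairs of receptors were named after their values were seen. Alternatives tried were quantile normalization, 3 centrings, another prior (trended and robust), a filter on dim genes, averaged probe sets, a replicate block, the t-test of the methods (raw and adjusted p) and leaving out each array.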

Additional observations from a re-analysis of the deposited data

How the results depend on the processing

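The count of 8 higher receptor genes and 1 lower was the same with dim genes left out, with the mean of the probe sets and by the methods' t-test at an unadjusted p under 0.05. It was 9 and 1 with a trended and robust prior and 7 and 1 after quantile normalization, where Slamf6 was no longer called. Median centring gave 9 higher and 0 lower, centring on housekeeping genes 3 and 5, centring on the Cd3 genes 1 and 6, and the adjusted t-test of the methods 6 and 0. Of all genes, 32.8% were higher and 18.2% lower after median centring, 4.16% and 88.4% after housekeeping centring, 1.48% and 94.7% after Cd3 centring, 25.3% and 21.2% after quantile normalization, and 12.5% and 6.90% by the adjusted t-test. These shares were 46.2% and 31.4% of the genes left by the dim filter. They were 25.6% and 34.4% with the mean of the probe sets, and 22.6% and 22.9% by the unadjusted t-test. With each array left out, 8 to 8 were higher and 0 to 1 lower, assuming that a single remaining array has the spread of the other group. Signs turned for Cd52 after quantile normalization (-0.32). After centring on housekeeping genes they turned for Cd6 (-0.0477), Slamf6 (-0.69), Ly9 (-0.47), Cd52 (-1.19), Cd53 (-0.41) and Cd84 (-0.61). After centring on the Cd3 genes they turned for Cd5 (-0.30), Cd6 (-0.60), Slamf6 (-1.24), Ly9 (-1.02), Cd52 (-1.74), Cd53 (-0.95) and Cd84 (-1.16). Among the pathway lists, leaving out resting replicate 2 gave 3 higher tetraspanins in place of 5, 2 higher CD2 tail partners in place of 3 and 0 lower SLAM tail partners in place of 2, and quantile normalization gave 2 higher tetraspanins and 1 higher CD2 tail partner. Centring moves every gene by 1 constant by construction, and which centring is right was not tested.

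No source says that a replicate number marks a shared culture, and the deviations of the replicate 1 arrays from their group means had a Pearson's r of 0.0179 across genes. With the replicate block 8 receptor genes were higher and 1 lower, and 5765 and 7929 of all genes were called, against 5688 and 7647 without it.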

Other observations

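The genes named here were chosen after their values were seen. The SLAM receptors among them come from the lists, which were chosen with earlier results of these data known. The stretch of chromosome 1 from Cd244a to Slamf8 held 26 measured genes, of which 9 were higher and 8 lower in proliferating Tregs on the deposited values. These shares of 34.6% and 30.8% are near the 25.6% and 34.5% of all genes. The largest change there was not in a receptor but in Tagln2, which encodes the actin-binding protein transgelin-2, with a log2 fold change of 3.09 (adjusted p = 9.62e-06 from limma). Vangl2, a planar cell polarity gene next to Slamf6, was at -0.95 (adjusted p = 9.83e-04). The SLAM receptor genes at the far end, Slamf9 and Slamf8, which are mostly known from myeloid cells, had log2 fold changes of 0.76 and -0.56 (adjusted p = 0.004 and 0.0267). Centring on housekeeping genes lowers each of these values by 1.42.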
